A study of Bos taurus with 7 samples.

Results

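A set of 21 protein-coding genes had almost no reads in 3 of 4 primary follicle (PF) libraries and was detected in each of the 3 secondary follicle (SF) libraries. The genes were chosen by their level in the follicle libraries themselves. A gene was taken if it lay below 0.1 TPM (a transcript abundance that accounts for length and depth) in each of PF replicates 1 to 3 and at 1 TPM or more in each of the 3 SF libraries, with a gene symbol that does not start with LOC. Of 17974 genes with such a symbol, among 23704 genes with a matched RefSeq transcript, 23 met these limits (including S1PR1 and IHH, which were left out by name), so that 21 genes, 0.117% of the named genes, are described here. Because the SF and PF levels selected them, the difference between SF and PF replicates 1 to 3 is given for these genes as a description with no test. PF replicate 4 played no part in the choice, and its value is the independent measurement of this set.

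By their known roles the genes span several pathways. They encode a neuropeptide receptor, an ion leak channel and proteins that act at synapses, proteins of the extracellular matrix and of the cell skeleton, and enzymes of lipid, folate and catecholamine metabolism. When a follicle passes from the primary to the secondary stage, its granulosa cells multiply from 1 layer of cuboidal cells to several layers around a growing oocyte, a basement membrane surrounds them, and theca cells begin to be recruited outside it. Granulosa cells and oocyte exchange small molecules through gap junctions, and both are surrounded by a matrix that is remodelled as the follicle grows.

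RNA was sequenced from pools of whole bovine follicles, oocyte and granulosa cells together, which had been isolated mechanically from ovaries of Holstein Friesian cows collected at an abattoir, and which were all sampled at T0, with no culture period. All follicles of both groups had stood for a short recovery period in a medium with insulin, transferrin, selenium, recombinant FSH and serum albumin before lysis. SF, follicles with several layers of granulosa cells, made up 3 libraries and were compared with PF, follicles with 1 layer of cuboidal granulosa cells, which made up 4. The study removed PF replicate 4 as an outlier, and this library is given separately for each gene of the set and for some of the related genes. The paper isolated follicles from many animals over many collections and describes the pools as biological replicates. Which animals contributed to each pool is not stated, so a p-value here covers the spread between the sequenced pools alone, and that spread may be technical. In pools of whole follicles, fewer cells of a type and less RNA per cell cannot be told apart.

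The libraries held 18788105 to 23764615 estimated counts each, and 12188 to 13034 genes reached 1 TPM in a library. Oocyte and granulosa markers were present in every library, with 15 to 18 of 18 oocyte genes and 16 to 18 of 20 granulosa genes at 1 TPM or more. The summed level of the oocyte list was 1763, 1401 and 220.6 TPM in SF replicates 1, 2 and 3 and 2478 to 5138 TPM in PF replicates 1 to 3. SF replicate 3 was thus the lowest of all libraries, below PF replicate 4 at 461.1 TPM. Markers of other cells were not even between libraries. Of 29 leukocyte genes, 19 reached 1 TPM in SF replicate 1, against 6 in each other SF library and 5 to 9 in PF libraries, and the MHC class II genes summed to 415.5 TPM in SF replicate 1 and to at most 80.3 TPM elsewhere. In PF replicate 4 the stromal fibroblast list summed to 6506 TPM, against 281.0 to 658.7 TPM in the other 6 libraries. None of the 21 genes belongs to the oocyte, granulosa, leukocyte, endothelial, smooth muscle or stromal fibroblast list, and 1, SGCA, belongs to the striated muscle list. The part of these markers in the levels described below was not tested.

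Of the 21 genes, 12 had 0 estimated counts in all of PF replicates 1 to 3, and the other 9 had at most 3.7 estimated counts in any of these libraries. The SF side rested on 12 to 420.8 estimated counts per gene and library. Mean SF levels ran from 1.54 TPM for *ASB12* to 8.0 TPM for *KRT2*, with a median of 3.83 TPM, against a median of 20.9 TPM over all named genes at 1 TPM or more in each SF library. The set therefore held genes of low abundance in SF. For 10 of the 21 genes, 3 counts in a library were worth more than 0.1 TPM, so a value below that limit there meant that hardly any read was seen. The plot of TPM by library shows the gap between the stages and the scattered position of PF replicate 4.

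**Figure D1:**
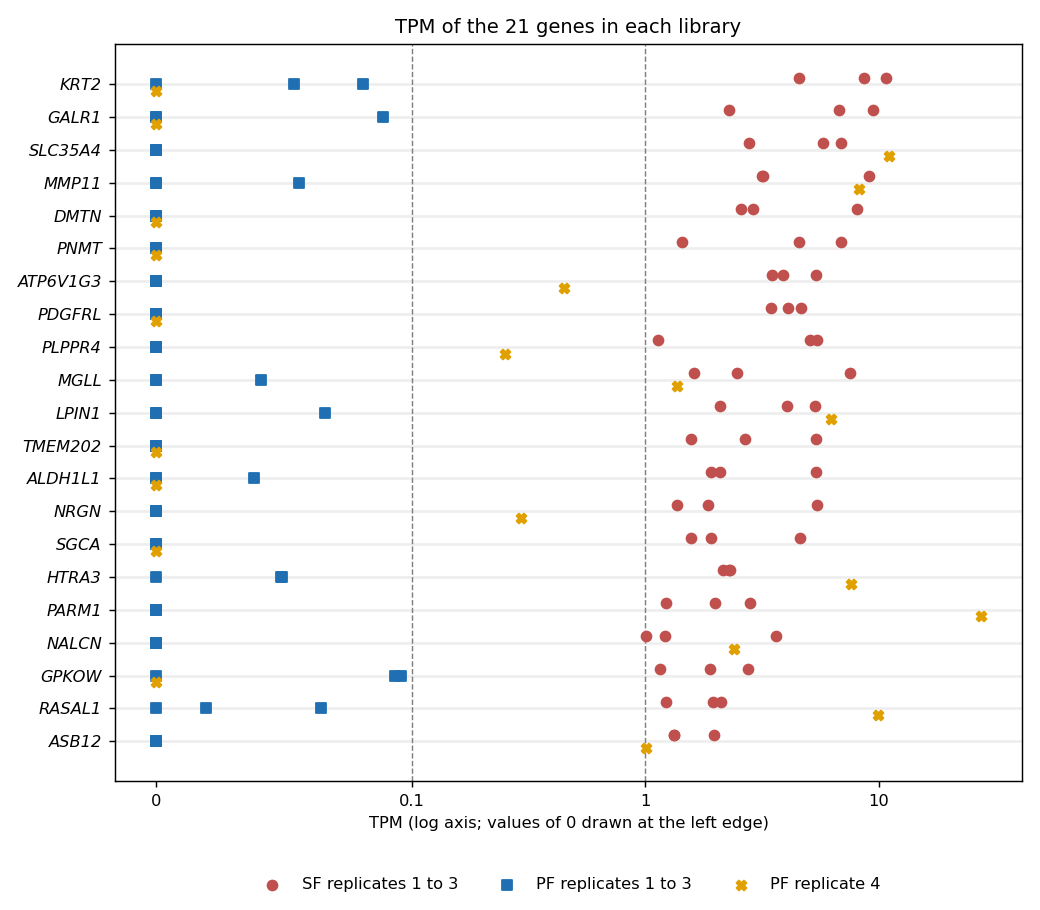
TPM of the 21 genes (rows, ordered by mean SF level) in SF replicates 1 to 3 (red circles), PF replicates 1 to 3 (blue squares) and PF replicate 4 (yellow crosses), on a log axis on which values of 0 are drawn at the left edge and dashed lines mark 0.1 and 1 TPM. All SF points lie at 1 TPM or more and all blue points below 0.1 TPM because the genes were selected so, while PF replicate 4 lies at 0 for 9 genes and at 1 TPM or more for 9.

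A first group of 5 genes encodes receptors, channels and proteins known from neurons. *GALR1*, a G protein-coupled receptor for the neuropeptide galanin, had 6.80, 2.28 and 9.46 TPM in SF replicates 1, 2 and 3, against 0.0755, 0 and 0 TPM in PF replicates 1, 2 and 3, and it was listed at 0 in PF replicate 4. Its only PF signal was 1 count, and the SF level was 248.1 times the PF level (95% exact binomial interval for counting error, 44.1 to 9833). Because the rule chose the genes on these same libraries, such ratios and intervals, here and below, are high by selection and are no test. They pool the reads of a stage and leave out the spread between libraries. SF replicate 2 stood lowest by a wide margin. The gene for its ligand, *GAL*, had 0.114, 0.411 and 36.5 TPM in SF, against 2.54, 0 and 9.35 TPM in PF replicates 1 to 3 and 15.5 TPM in PF replicate 4. Galanin transcripts were thus uneven within both stages and overlapped between them, with a DESeq2 adjusted p of 0.62. The other galanin receptor genes, *GALR2* and *GALR3*, reached at most 0.603 TPM in any library.

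*NALCN* encodes the sodium leak channel that sets the resting potential of neurons. Its level was 1.01, 3.63 and 1.21 TPM in SF replicates 1, 2 and 3, and it had 0 counts in each of PF replicates 1 to 3, so the SF mean lay at least 59.7-fold higher than a floor of 3 counts per library. PF replicate 4, with 2.40 TPM from 198.5 counts, fell within the SF range. The channel works in a complex with *UNC79*, *UNC80* and the ancillary proteins *NALF1* and *NALF2*. *NALF2*, which was not selected by the rule, had 1.96, 0.177 and 1.17 TPM in SF and 0.0171, 0 and 0 TPM in PF replicates 1 to 3, but 3.87 TPM in PF replicate 4, above every SF library. Against PF replicates 1 to 3 it was higher in SF by 7.64 ± 1.82 on the log2 scale (DESeq2 estimate ± SE, n = 3 each, adjusted p = 0.00068), although SF replicate 2 was low, and the call was lost with PF replicate 4 included (adjusted p = 0.98). *UNC80* (1.40 ± 1.59 TPM in SF and 0.466 ± 0.357 TPM in PF, SD, n = 3 each) did not pass the test, and *UNC79* was at most 0.00673 TPM in every library.

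*PLPPR4* encodes a membrane protein of the lipid phosphate phosphatase family that acts at excitatory synapses in mouse. It had 5.06, 1.14 and 5.45 TPM in SF replicates 1, 2 and 3 and 0 counts in PF replicates 1 to 3, at least 94.3-fold higher in SF. PF replicate 4 had 0.252 TPM, below every SF library. Of its SF level, 80.2% came from 1 transcript model and 19.8% from another that was read in SF replicate 1 alone. *PLPPR5*, a relative outside the set, missed the rule by one library, with 0.992, 2.19 and 1.55 TPM in SF and 0.0353, 0.0174 and 0.0176 TPM in PF replicates 1 to 3, and it was higher in SF by 5.25 ± 1.23 on the log2 scale (DESeq2 adjusted p = 0.00052). Family members moved in different directions. *PLPP2*, a lipid phosphate phosphatase, was at 18.3 ± 9.61 TPM in SF and 70.5 ± 18.7 TPM in PF (SD, n = 3 each), lower in SF by DESeq2 (log2 fold change -1.84 ± 0.49, adjusted p = 0.0025). *PLPPR1*, *PLPPR2*, *PLPPR3*, *PLPP1* and *PLPP3* did not pass.

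*NRGN*, the gene of neurogranin, which binds calmodulin when calcium is low, had 1.86, 1.37 and 5.47 TPM in SF replicates 1, 2 and 3. It had 0 counts in PF replicates 1 to 3, at least 8.74-fold higher in SF, and 0.293 TPM in PF replicate 4. These values rested on few reads, 12 to 49.0 counts in an SF library and 2.4 in PF replicate 4. Calmodulin itself was abundant in both stages, with *CALM2* at 1626 ± 86.3 TPM in SF and 1553 ± 192 TPM in PF (SD, n = 3 each, DESeq2 adjusted p = 0.64). *RASAL1*, a GTPase-activating protein that switches off Ras in response to calcium, had 1.23, 1.95 and 2.10 TPM in SF, against 0, 0.0131 and 0.0409 TPM in PF replicates 1 to 3. Its ratio was 96.2 (95% counting interval 39.6 to 287.6). In PF replicate 4 it reached 9.92 TPM, from 801.6 counts, above every SF library. Its relatives *RASAL2*, *RASAL3*, *RASA1*, *RASA2* and *RASA3* did not pass the DESeq2 test.

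Proteins of the extracellular space came next. *MMP11*, a secreted metalloproteinase also called stromelysin-3, had 3.20, 3.16 and 9.08 TPM in SF replicates 1, 2 and 3, against 0, 0 and 0.0328 TPM in PF replicates 1 to 3. SF replicate 3 was highest. PF replicate 4, at 8.23 TPM, lay within the SF range. Among the inhibitors of metalloproteinases, *TIMP2* had 2612, 3171 and 2228 TPM in SF and 919.6, 913.3 and 905.5 TPM in PF replicates 1 to 3. The stages did not overlap, and *TIMP2* was higher in SF by 1.64 ± 0.24 on the log2 scale (DESeq2 adjusted p = 2.6e-09), a call that held when any 1 of these 6 libraries was left out. PF replicate 4 had 2121 TPM, and with it included the adjusted p was 0.14. *TIMP3* was higher by 2.05 ± 0.65 (adjusted p = 0.014), which was lost when PF replicate 1, PF replicate 2, SF replicate 2 or SF replicate 3 was left out (adjusted p up to 0.11). The metalloproteinase genes *MMP2*, *MMP9*, *MMP14*, *MMP15* and *MMP16* did not pass, and *MMP2* had 6.43 to 23.8 TPM in SF and 744.8 TPM in PF replicate 4.

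*HTRA3*, a secreted serine protease, was the steadiest gene of the set among SF libraries, with 2.15, 2.29 and 2.31 TPM, a coefficient of variation of 3.75%. These levels rested on 80 to 90.4 counts per library, for which counting error alone is larger than that spread. In PF replicates 1 to 3 it had 0.0277, 0 and 0.0276 TPM, a total of 2 counts, and the ratio was 122.1 (95% counting interval 33.5 to 1014). PF replicate 4 stood far above all of these at 7.60 TPM. *HTRA1* and *HTRA2*, from the same protease family, were present in both stages and did not pass the test, and *HTRA1* had 992.9 TPM in PF replicate 4. *PDGFRL*, a secreted protein that resembles the ligand-binding part of the PDGF receptor, was also steady, with 4.67, 3.45 and 4.09 TPM in SF and 0 counts in all 4 PF libraries. It was at least 28.5-fold higher in SF than the floor of 3 counts. The receptor genes gave a different picture. *PDGFRA* had 1.97 ± 1.29 TPM in SF and 1.45 ± 1.52 TPM in PF (SD, n = 3 each, DESeq2 adjusted p = 0.85), and 117.3 TPM in PF replicate 4. *PARM1*, a mucin-like membrane protein, had 2.82, 1.22 and 1.99 TPM in SF, at least 11.9-fold higher than the floor in PF replicates 1 to 3, where it had 0 counts. With 27.5 TPM from 442.3 counts in PF replicate 4, it was the gene furthest above its SF level there, at 13.7 times the SF mean.

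Structural proteins included *KRT2*, a type II keratin known from the epidermis and the most abundant of the 21 genes in SF. It had 8.63, 10.8 and 4.56 TPM in SF replicates 1, 2 and 3, against 0.0313, 0.0619 and 0 TPM in PF replicates 1 to 3, and 0 in PF replicate 4. The PF signal was 3 counts in all, and the ratio was 257.3 (95% counting interval 87.7 to 1250). Other keratins did not move as one. *KRT8* and *KRT18* had higher means in SF (227.3 and 68.5 TPM) than in PF (27.3 and 10.8 TPM). SF replicate 3, at 637.5 and 192.3 TPM, set those SF means, and neither gene had an adjusted p. *KRT10* did not pass the test (DESeq2 adjusted p = 0.94), and *KRT5* and *KRT7* reached at most 0.12 TPM in any library. *KRT1*, its neighbour in the genome, was listed at 0 in all SF libraries and in PF replicates 1 to 3 and had 0.93 TPM in PF replicate 4. *KRT19* was lower in SF, at 22.1 ± 16.9 TPM in SF and 131.2 ± 51.3 TPM in PF (SD, n = 3 each, log2 fold change -2.56 ± 0.79, DESeq2 adjusted p = 0.011), a call lost without PF replicate 2 (adjusted p = 0.076).

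*DMTN* encodes dematin, which bundles actin in the membrane skeleton of red blood cells. Its level was 2.91, 8.07 and 2.56 TPM in SF replicates 1, 2 and 3, with 0 counts in all 4 PF libraries, at least 50.1-fold higher in SF. SF replicate 2 was the high library. The rest of the membrane skeleton did not move as one. Of 16 tested list genes other than *DMTN*, 3 were higher and 3 lower in SF by DESeq2, with a median log2 fold change of 0.08, beside 0.02 over all genes tested. The ankyrins went opposite ways, with *ANK3* at 5.53 ± 3.57 TPM in SF and 1.01 ± 0.14 TPM in PF (log2 fold change 2.57 ± 0.62, adjusted p = 8e-04) and *ANK2* at 4.18 ± 1.55 TPM in SF and 13.8 ± 2.88 TPM in PF (SD, n = 3 each, log2 fold change -1.63 ± 0.33, DESeq2 adjusted p = 5.5e-05). Tropomodulins cap actin filaments. *TMOD1* was lower in SF (log2 fold change -1.92 ± 0.54, adjusted p = 0.0044, and 0.054 without PF replicate 1). *TMOD3* was higher in SF (log2 fold change 1.70 ± 0.57, adjusted p = 0.02), a call lost without PF replicate 1, PF replicate 2, SF replicate 1 or SF replicate 3 (adjusted p up to 0.14).

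*SGCA* encodes alpha-sarcoglycan, part of the dystrophin-associated complex of striated muscle. It had 4.62, 1.91 and 1.58 TPM in SF replicates 1, 2 and 3 and 0 counts in all 4 PF libraries, at least 18.5-fold higher in SF. SF replicate 1 was highest. Other genes of the complex were called in both directions. *SGCB*, beta-sarcoglycan, had 34.9 ± 11.1 TPM in SF and 13.6 ± 1.23 TPM in PF and was higher in SF (SD, n = 3 each, log2 fold change 1.45 ± 0.38, DESeq2 adjusted p = 0.0022). *DAG1*, dystroglycan, was higher by 1.43 ± 0.34 (adjusted p = 0.00079). PF replicate 4 had 60.7 TPM of *SGCB* and 60.03 TPM of *DAG1*, and with it included neither passed. *SGCE*, epsilon-sarcoglycan, was higher by 1.07 ± 0.35 (adjusted p = 0.016), a call lost without PF replicate 1, PF replicate 2, SF replicate 1 or SF replicate 2 (adjusted p up to 0.1). *DMD*, dystrophin itself, was lower in SF (log2 fold change -2.01 ± 0.73, adjusted p = 0.035), a call lost without any 1 of PF replicates 1 to 3 or SF replicate 2 (adjusted p up to 0.16). *SGCD*, delta-sarcoglycan, was lower in SF (log2 fold change -1.80 ± 0.55, adjusted p = 0.01), a call lost without PF replicate 1, PF replicate 2 or SF replicate 3 (adjusted p up to 0.1). *COL1A1*, the gene next to *SGCA*, had 643.7 TPM in PF replicate 4, where *SGCA* was at 0.

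Enzymes and transporters made up the metabolic group. *PNMT*, which makes adrenaline from noradrenaline, had 1.44, 4.55 and 6.90 TPM in SF replicates 1, 2 and 3 and 0 counts in all 4 PF libraries, at least 18.9-fold higher in SF. Of the enzymes upstream of it, *TH* and *DBH* were listed at 0 in all 7 libraries. *DDC* was detected at 1.91, 1.05 and 0.117 TPM in SF replicates 1, 2 and 3. In PF replicates 1 to 3 it had 0.245, 0.133 and 0.856 TPM, and it did not pass the test (DESeq2 adjusted p = 0.58). *ALDH1L1*, the cytosolic 10-formyltetrahydrofolate dehydrogenase of folate metabolism, had 2.09, 5.39 and 1.92 TPM in SF, against 0.0211, 0 and 0 TPM in PF replicates 1 to 3, and 0 in PF replicate 4. Other folate enzymes did not follow it. *SHMT2* was at 46.1 ± 11.3 TPM in SF and 142.3 ± 53.3 TPM in PF (SD, n = 3 each, log2 fold change -1.51 ± 0.35, DESeq2 adjusted p = 0.00053), and *MTHFD1* had a log2 fold change of -1.66 ± 0.46 (adjusted p = 0.0046, and 0.054 without PF replicate 1), while *ALDH1L2*, *MTHFD2* and *SHMT1* did not pass.

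*MGLL*, monoglyceride lipase, breaks down the endocannabinoid 2-arachidonoylglycerol. It had 7.54, 2.48 and 1.62 TPM in SF replicates 1, 2 and 3, against 0, 0.0227 and 0 TPM in PF replicates 1 to 3, and 1.37 TPM in PF replicate 4. SF replicate 1 was the high library and the spread was the widest of the set, with a coefficient of variation of 82.5%. *DAGLA*, which makes that lipid, was lower in SF, at 0.16 ± 0.04 TPM in SF and 0.83 ± 0.11 TPM in PF (SD, n = 3 each, log2 fold change -2.29 ± 0.73, DESeq2 adjusted p = 0.014), a call lost without PF replicate 2, PF replicate 3 or any SF library (adjusted p up to 0.08). *NAPEPLD*, which makes N-acylethanolamines, was also lower (log2 fold change -2.45 ± 0.60, adjusted p = 0.00096). *FAAH*, *ABHD6*, *ABHD12* and *DAGLB* did not pass.

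*LPIN1*, lipin 1, converts phosphatidate to diacylglycerol. Its level was 2.09, 4.06 and 5.34 TPM in SF replicates 1, 2 and 3, against 0, 0 and 0.0427 TPM in PF replicates 1 to 3, and 6.28 TPM in PF replicate 4, above every SF library. Of the 5 transcript models matched to the gene, 1 held all of the SF level. The PF replicate 3 reads lay on another model, and in PF replicate 4 the SF model had 3.13 TPM and a further model 3.15 TPM. *LPIN2* was present in both stages, at 56.4 ± 6.54 TPM in SF and 45.7 ± 10.5 TPM in PF (SD, n = 3 each, DESeq2 adjusted p = 0.094). *GPAM*, an earlier step of glycerolipid synthesis, was higher in SF by 1.67 ± 0.43 on the log2 scale (adjusted p = 0.002), and *DGAT2*, the last step to triglyceride, was lower (log2 fold change -1.90 ± 0.64, adjusted p = 0.021), a call lost without PF replicate 1, PF replicate 2 or SF replicate 2 (adjusted p up to 0.099).

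*SLC35A4*, of a family that carries nucleotide sugars into the Golgi apparatus, had 6.90, 5.77 and 2.79 TPM in SF replicates 1, 2 and 3 and 0 counts in PF replicates 1 to 3, at least 44.6-fold higher in SF. PF replicate 4 had 11.03 TPM from 258.6 counts, above every SF library. Its relatives *SLC35A1*, *SLC35A2*, *SLC35A3* and *SLC35A5* were present in both stages and did not pass the test. *ATP6V1G3*, an isoform of a subunit of the proton pump that acidifies lysosomes, had 3.49, 5.37 and 3.88 TPM in SF, with 0 counts in PF replicates 1 to 3 and 0.447 TPM in PF replicate 4. These levels came from 19.0 to 26.0 counts per SF library and 2 counts in PF replicate 4, and the SF mean was at least 6.98-fold higher than the floor of 0.609 TPM. The common isoform *ATP6V1G1* was far more abundant in both stages, at 584.1 ± 80.0 TPM in SF and 510.0 ± 69.9 TPM in PF (SD, n = 3 each, DESeq2 adjusted p = 0.33).

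The remaining genes act in protein turnover and splicing or have a role that is not given here. *ASB12*, a substrate receptor of a cullin ubiquitin ligase, was the least abundant in SF, with 1.32, 1.34 and 1.97 TPM, 0 counts in PF replicates 1 to 3 (at least 7.43-fold higher in SF) and 1.00 TPM in PF replicate 4. *GPKOW*, a protein of the spliceosome, had 1.903, 2.75 and 1.16 TPM in SF, against 0, 0.0844 and 0.0896 TPM in PF replicates 1 to 3, and 0 in PF replicate 4. It had the smallest ratio among the genes with PF counts, 33.2 (95% counting interval 16.3 to 85.6). *TMEM202*, a predicted membrane protein, had 5.40, 2.67 and 1.57 TPM in SF and 0 counts in all 4 PF libraries, at least 14.5-fold higher in SF. Of the 21 genes, 8 overlap another gene model other than a tRNA or miRNA gene in the ARS-UCD2.0 annotation, and the library kit does not mark strand, so reads of *ASB12* and *MTMR8*, or of *GPKOW* and its overlapping LOC gene, cannot be told apart by strand.

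PF replicate 4 divided the set. In it 9 genes were at 1 TPM or more (*SLC35A4*, *MMP11*, *MGLL*, *LPIN1*, *HTRA3*, *PARM1*, *NALCN*, *RASAL1* and *ASB12*), 3 lay between 0.1 and 1 TPM (*ATP6V1G3*, *PLPPR4* and *NRGN*), and 9 were listed at 0 (*KRT2*, *GALR1*, *DMTN*, *PNMT*, *PDGFRL*, *TMEM202*, *ALDH1L1*, *SGCA* and *GPKOW*). Against the SF range, 5 genes lay above every SF library, 2 within the range and 5 of those detected below it. The summed level of the 21 genes was 77.1, 75.6 and 77.0 TPM in SF replicates 1, 2 and 3, against 0.16, 0.18 and 0.23 TPM in PF replicates 1 to 3 and 76.3 TPM in PF replicate 4. The near-equal sums hid different genes, since *PARM1*, *SLC35A4*, *RASAL1*, *MMP11* and *HTRA3* led in PF replicate 4 and *KRT2* and *GALR1*, which led in SF, were at 0 there. Several marker lists also stood apart in PF replicate 4. Beside the stromal fibroblast list given above, the theca and steroid list summed to 1613 TPM there, the striated muscle list to 1607 TPM (*CSRP3* alone 1417 TPM) and the smooth muscle and pericyte list to 1252 TPM, against at most 295.4, 87.6 and 191.8 TPM in PF replicates 1 to 3, and the oocyte list summed to 461.1 TPM. Their part in these levels was not tested.

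**Figure D2:**
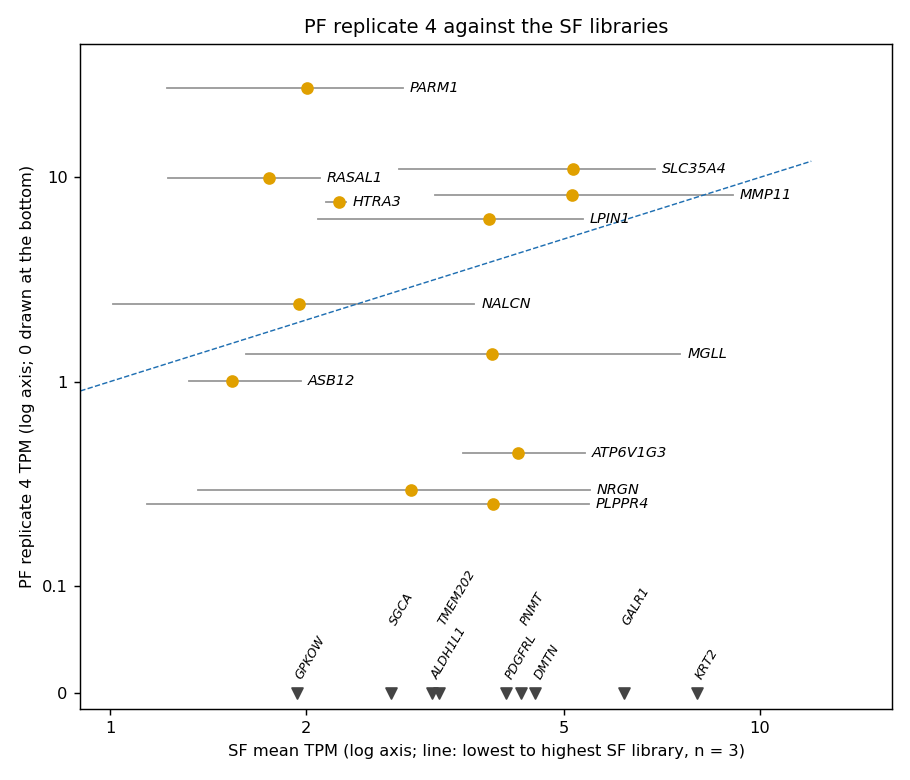
TPM in PF replicate 4 (vertical log axis, 0 drawn at the bottom) against the mean SF TPM (horizontal log axis) of the 21 genes. Yellow points are genes detected in PF replicate 4, with a grey line from the lowest to the highest of 3 SF libraries, black triangles are genes listed at 0, and the dashed line marks equal levels. *PARM1* at 27.5 TPM lies furthest above the dashed line.

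A share of 42.9% of the set (9 of 21) thus reached 1 TPM in PF replicate 4. Among other named genes below 0.1 TPM in PF replicates 1 to 3, the share was 21.03% (61 of 290) for those at 1 TPM or more in 1 or 2 SF libraries and 4.06% (131 of 3224) for those below 1 TPM in each SF library. Among other named genes at 1 TPM or more in each SF library, it was 96.0% (10092 of 10514). PF replicate 4 is 1 library, so these shares carry no test.

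**Figure D3:**
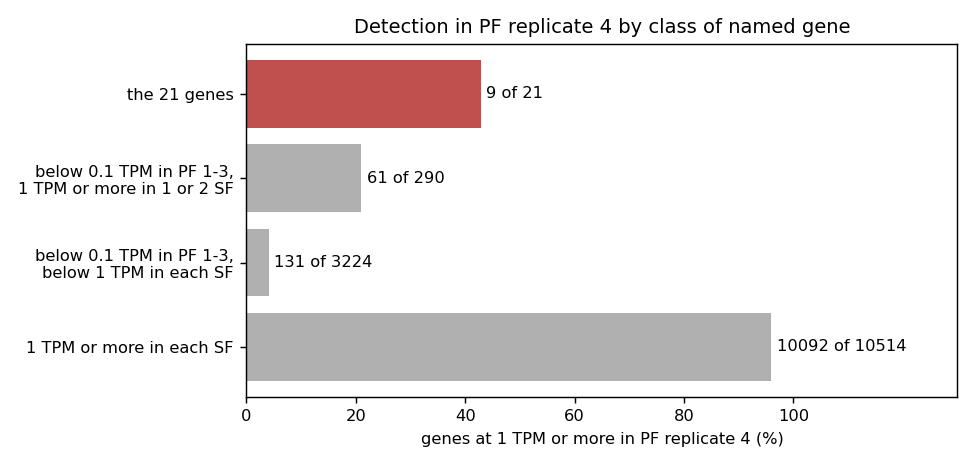
Percent of genes at 1 TPM or more in PF replicate 4, for the 21 genes (red) and 3 classes of other named genes (grey) defined by their level in PF replicates 1 to 3 and in SF, with the number of genes beside each bar. The 21 genes, at 42.9%, lie between the genes seen in 1 or 2 SF libraries (21.03%) and those seen in every SF library (96.0%).

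The set was a small remainder of genes that were missing from some PF libraries. Of the 10537 named genes at 1 TPM or more in each SF library, 10047 were at or above 0.1 TPM in all of PF replicates 1 to 3, 354 lay below it in 1 of them, 113 in 2 and 23 in all 3. With the stages exchanged, 8 named genes were at 1 TPM or more in each of PF replicates 1 to 3 and below 0.1 TPM in each SF library. Conversely, of genes below 0.1 TPM in PF replicates 1 to 3, 229 reached 1 TPM in 1 SF library, 61 in 2 and 21 in all 3, apart from the genes left out by name. SF replicate 1 alone accounted for 111 of the 229.

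Just inside the SF limit lay *NALCN*, *PLPPR4* and *GPKOW*, whose lowest SF values were 1.01, 1.14 and 1.16 TPM. Just outside lay *PLPPR5*, *C11H2orf81* and *EFR3B*, with lowest SF values of 0.992, 0.991 and 0.955 TPM. On the PF side, the highest PF values just inside were 0.0896 TPM for *GPKOW*, 0.0755 TPM for *GALR1* and 0.0619 TPM for *KRT2*, and just outside were *CADM2*, *TMEM140* and *SLC1A3* at 0.102, 0.104 and 0.105 TPM. The set has no gap at its borders.

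The 21 genes did not share one pattern across SF libraries. The highest value fell in SF replicate 1 for 6 genes, in SF replicate 2 for 6 and in SF replicate 3 for 9. The highest SF value was 2.81 times the lowest in the median gene of the set, against 2.10 times in those 2429 genes. Of the 21, 5 (23.8%) stayed under a 2-fold spread, against 45.9% of the 2429. These 5 were *HTRA3*, *PDGFRL*, *ASB12*, *ATP6V1G3* and *RASAL1*, of which *ASB12* and *ATP6V1G3* rested on few counts. *SLC35A4*, *PDGFRL*, *MGLL*, *TMEM202*, *SGCA* and *PARM1* were highest in SF replicate 1, the library with the high leukocyte and MHC class II levels, and the part of those cells was not tested. Genes highest in that library were no more frequent in the set than among the 2429 others. Each of these 6 genes was also at 1 TPM or more in both other SF libraries.

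Genes related to the set by family, complex or pathway were tested across SF and PF replicates 1 to 3. By DESeq2, 1226 of 15056 genes were higher in SF (8.14%) and 1650 lower (11.0%) at an adjusted p below 0.05. Of 118 relatives outside the set, 100 could be tested, and 11 were higher and 14 lower, shares close to those over all genes. The plot of their fold changes shows *NALF2* and *PLPPR5* among the largest differences. Over the 20 gene lists, 67 of 300 tested genes outside the set were higher in SF and 33 lower. Of 32 tested voltage-gated and leak cation channel genes other than *NALCN* (42 matched), 8 were higher and 2 lower (median log2 fold change 0.80). Of 16 tested striated muscle genes other than *SGCA* (27 matched), 5 were higher (median 0.94). Of 23 tested synaptic genes other than *NRGN* (26 matched), 4 were higher (median 1.28), where the median over all genes tested was 0.02. Genes with no adjusted p are left out of these counts and medians. *XIRP1*, *ITGA7* and *MB*, among the 5 striated muscle genes called, were listed at 0 in PF replicates 1 to 3. Only SF reads brought them into the test. Of 21 tested ligand-gated channel genes (28 matched), 3 were higher and 3 lower (median -0.54). Some lists with no gene of the set also leaned higher. Of 21 tested motile cilium genes 7 were higher and 2 lower (median 1.21), and of 17 interferon-induced genes 6 were higher and 0 lower (median 1.05). Of 15 leukocyte genes 4 were higher and 1 lower (median 2.5). Surface epithelium genes leaned the other way, with 0 of 8 higher and 2 lower (median -1.17). Leaning higher was thus not particular to lists that hold a gene of the set. The markers of the follicle's own cells moved with the stage, with 14 of 18 oocyte genes lower in SF (median -2.16) and 10 of 18 tested granulosa genes higher (median 1.51). The part of this shift in the calls was not tested. edgeR called 0 genes in either direction at this threshold, with 3844 genes at an unadjusted p below 0.05 and a smallest adjusted p of 0.0525, so none of these calls was made by it. limma on log2(TPM + 1) with a trend called 4 of the 25 relatives, *TIMP2*, *PLPP2*, *NAPEPLD* and *SHMT2* (adjusted p from 0.042 to 0.047). With PF replicate 4 included in the DESeq2 fit, 7 of the 25 called relatives passed the threshold, among them *PLPPR5*, *PLPP2*, *ANK3*, *GPAM* and *SHMT2*. Those that lost the call included *NALF2* (adjusted p = 0.98), *SGCB* (0.8), *DAG1* (0.64), *ANK2* (0.29) and *TIMP2* (0.14).

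**Figure D4:**
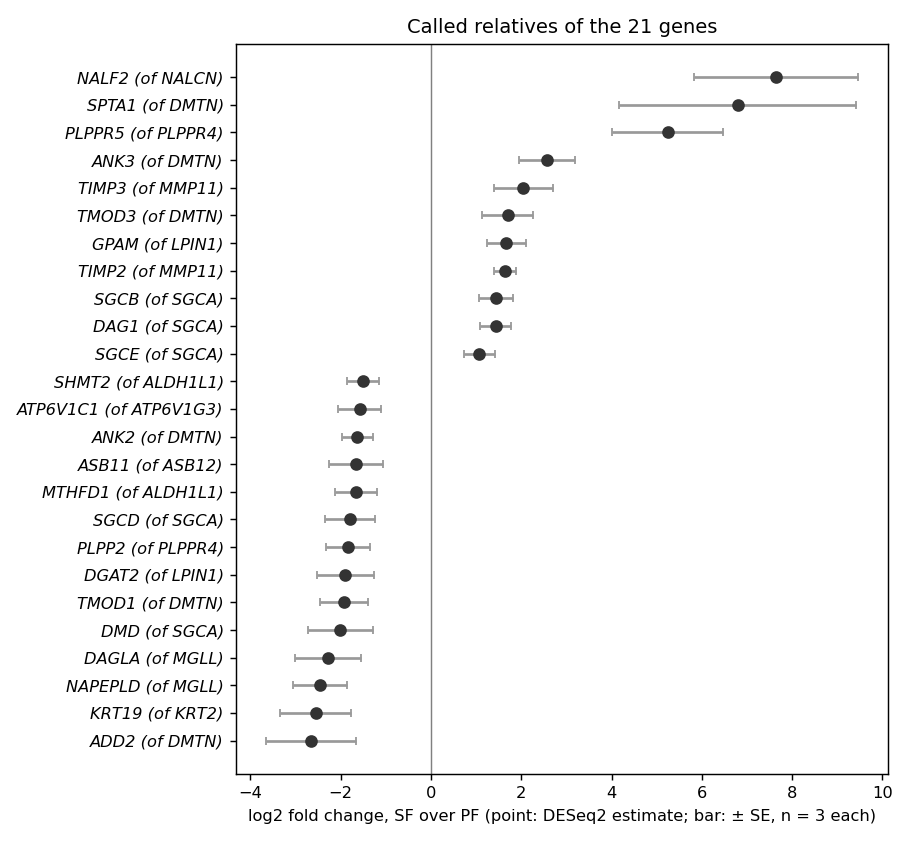
Log2 fold change of SF over PF for the 25 relatives with a DESeq2 adjusted p below 0.05 (points, DESeq2 estimates, with bars of ± SE, 3 libraries each), each labelled with the gene of the set it is related to. The 11 higher in SF lie right of 0, led by *NALF2* at 7.64, and the 14 lower in SF lie left of it.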

How the data were processed

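The authors amplified cDNA with the SMART-Seq v4 kit, trimmed reads with Trim Galore and quantified transcripts with Salmon against the bovine ARS-UCD1.3 transcriptome. Per the file headers, each deposited table holds an estimated count and a TPM (an abundance that accounts for length and depth) per RefSeq transcript. Accessions of 50205 of the 76123 transcripts (66.0%) led to 23704 genes of a RefSeq gene table (ARS-UCD2.0), used for names and neighbours only. The rest carried 9.71% to 10.73% of a library's counts, and reads of a gene listed at 0 may lie among them. Columns of other series numbered 0. TPM and counts were summed per gene, and counts were rounded for the tests. No 2 libraries of a group were duplicates (chi-square 98.0 to 629.9 per degree of freedom).

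Genes outside the set were tested with DESeq2 1.42.0 in R 4.3.3 on 3 SF libraries and PF replicates 1 to 3, as in the study, with Benjamini-Hochberg adjusted p below 0.05 over all genes. Alternatives were limma 3.58.1 with a mean-variance trend on log2(TPM + 1) or log2(TPM + 0.1), the quasi-likelihood test of edgeR 4.0.16, TMM factors, a count filter, a block on the replicate number, a covariate from the number in the library name, the inclusion of PF replicate 4, adjusted p below 0.01 and each library left out. The limma fits were first made with no trend. The trend was added once their counts were known, and both versions are given. The fits were tested on simulated data. Intervals are exact binomial (95%) and floors are 3 counts per library. The reads carry no molecular identifiers, so both cover counting error only. Python 3.11.15, numpy 2.4.6, pandas 2.3.3, scipy 1.17.1 and matplotlib 3.10.9 were used.

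The genes of the set and the lists were chosen with earlier results of these data known, and the relatives once the genes of the set were known. Given in every library were the 12 genes with the highest SF mean, every gene of a list, the 6 highest in PF replicate 4, the 3 nearest each limit and the 6 steadiest in SF, and ALDH1L1 was added so that all 21 are shown. Relatives were named where they share a complex or family with a gene of the set.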

Additional observations from a re-analysis of the deposited data

Results flagged for a closer look

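Among the 4 PF libraries, PF replicate 4 stood apart on the high side, by its gap to the nearest library over the whole range, for 12 of the 21 genes. Its values were 27.5 TPM for *PARM1*, 11 TPM for *SLC35A4*, 9.92 TPM for *RASAL1*, 8.23 TPM for *MMP11*, 7.6 TPM for *HTRA3*, 6.28 TPM for *LPIN1*, 2.4 TPM for *NALCN*, 1.37 TPM for *MGLL*, 1.0 TPM for *ASB12*, 0.447 TPM for *ATP6V1G3*, 0.293 TPM for *NRGN* and 0.252 TPM for *PLPPR4*. The summed level of the 21 genes in that library, 76.3 TPM, stood apart in the same way. Because the genes were selected to lie near 0 in PF replicates 1 to 3, any gene with reads in PF replicate 4 meets this criterion. PF replicate 1 stood apart for *GALR1* (0.0755 TPM) and *ALDH1L1* (0.0211 TPM), each from 1 count. Of the marker lists, PF replicate 4 stood apart for the stromal fibroblast list (6506 TPM), the theca and steroid synthesis list (1613 TPM), the striated muscle list (1607 TPM), the smooth muscle and pericyte list (1252 TPM) and the MHC class II list (80.33 TPM). Of the related and neighbouring genes whose PF replicate 4 value is printed, it stood apart for *NALF2* (3.866 TPM), *TIMP2* (2121 TPM), *HTRA1* (992.9 TPM), *MMP2* (744.8 TPM), *COL1A1* (643.7 TPM), *PDGFRA* (117.3 TPM), *SGCB* (60.71 TPM) and *KRT1* (0.9298 TPM), and PF replicate 1 stood apart for *PLPPR5* (0.03527 TPM). For normally distributed values, chance alone flags about 1 in 20 groups of this size. That rate need not hold for TPM with many zeros, where 1 count was enough to flag *GALR1* and *ALDH1L1*.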

How the results depend on the processing

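Other limits changed the size of the set. In place of 21 genes, 12 met the rule with 0 counts in PF replicates 1 to 3, 41 with below 0.5 TPM there, 48 with 0.5 TPM or more in SF, 9 with 2 TPM or more in SF and 9 with PF replicate 4 held below 0.1 TPM as well. Leaving out 1 library gave 39 to 79 genes (79 without PF replicate 3). Curated transcripts alone and a rule on counts each gave 24 genes, of which 11 were among the 21. Of the 14 alternatives, 9 only loosen the rule, so every gene met them. Of the other 5, *DMTN* and *PDGFRL* met all and *RASAL1* failed all 5. Of the 12 genes with 0 counts in PF replicates 1 to 3, 4 were at 1 TPM or more in PF replicate 4. Among list genes outside the set, with 67 higher and 33 lower in SF by DESeq2, edgeR called 0 and 0, limma with a trend 11 and 10 on log2(TPM + 1) and 0 and 0 on log2(TPM + 0.1), limma with no trend 0 and 0 on log2(TPM + 1) and 2 and 0 on log2(TPM + 0.1), all 7 libraries 33 and 8, and adjusted p below 0.01 37 and 20. Leaving out 1 library gave 46 to 87 higher and 19 to 34 lower, with 20 lower without PF replicate 1 and 19 without PF replicate 2. Over all genes, against 1226 higher and 1650 lower, limma on log2(TPM + 1) called 233 and 559 with a trend and 0 and 3 without, limma on log2(TPM + 0.1) called 0 and 2 with a trend and 37 and 23 without, and all 7 libraries gave 388 and 470. Of the 406 refits of the 25 called relatives, 216 kept the call, 190 lost it and 0 changed direction. The cause of these differences was not tested.

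With the replicate number as a block, 82 list genes were higher and 45 lower, and 1948 and 2129 over all genes. The deviations of same-numbered libraries correlated at 0.26, -0.04 and 0.40, and the last, SF replicate 3 with PF replicate 3, was the highest of all pairs. SF replicate 1 correlated about equally with PF replicate 1 (0.26) and PF replicate 2 (0.27). Which animals made up each pool is not stated, so whether same-numbered libraries share more than a number cannot be told. Depth limits genes such as *NRGN*, *ASB12* and *ATP6V1G3*, whose lowest SF values rest on 12, 18.7 and 19.0 counts.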
